A study of Mus musculus with 8 samples.

Results

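The Toll-like receptor genes Tlr1, Tlr2, Tlr3, Tlr4, Tlr6, Tlr7, Tlr8, Tlr9 and Tlr13 and the co-receptor gene Cd14 were followed across 8 Illumina beadchip arrays of mouse macrophages grown from bone marrow. They were chosen as a family by gene symbol in the platform annotation, whatever their values, and make up 10 genes and 15 probes among 45281 probes on the array. The labels give 4 libraries as WT (control 1 to 4) and 4 as vav1-/- (VAV ko 1 to 4), all strain C57BL/6 by label, from mice of 7 to 12 weeks and both sexes. The Vav1 protein relays signals from receptors in blood cells, and the design compares macrophages with and without it. No treatment such as a Toll-like receptor ligand is named for any library. The labels say neither how the marrow was cultured nor whether libraries came from separate mice, so p-values cover only the variation among these 8 libraries, part of which may be technical.

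Toll-like receptors sense parts of microbes and, through adaptor proteins, switch on inflammatory genes. Receptors of the cell surface read lipids and lipoproteins of bacteria, while those of the endosome read nucleic acids. CD14 has no signalling domain of its own and hands lipopolysaccharide (LPS), a lipid of Gram-negative bacteria, to the complex of TLR4 and MD-2. Macrophages carry most of these receptors before any stimulus.

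Of the 15 probes, 11 reached an intensity of 100 on 4 or more arrays and entered the tests, and they stand for 8 of the 10 genes. Tlr3 and Tlr9 had no such probe. The arrays share their quartiles and extremes of intensity, with a median of 86.2 and a highest value of 26278. Intensities of different probes are not on a common scale, so each probe was tested against itself across libraries. Readings of different probes were set together only to rank them by brightness and in sums over marker lists. The RNA is of whole cultures, in which fewer cells of a type and less RNA per cell cannot be told apart.

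The knockout label was not mirrored in Vav1 itself, whose single probe read 1825, 1642, 267 and 384 in control 1 to 4 and 1805, 1699, 308 and 288 in VAV ko 1 to 4. Under either label it was high in the libraries with the numbers 1 and 2 and low in those with 3 and 4. Each labelled group thus holds 2 libraries with high and 2 with low Vav1 readings. Whether the probe lies in the deleted part of the gene was not examined, and whether libraries were swapped between the labels, so that each group mixes genotypes, was not tested. Directions below, and counts of 0 between the labels, are therefore those of the libraries as labelled, and no library was moved. Control 4 stood apart, with correlations of 0.847 to 0.906 with the other 7 libraries on the log2 scale over the 13479 kept probes, against 0.973 to 0.996 among the other 7. It was the lowest of the 8 libraries at 41.1% of kept probes and the highest at 39.7%, so values are also given without it. Of 7 macrophage markers with a probe, 7 passed the filter. Adgre1, which encodes F4/80, read 6026 to 11859 and Lyz2, a lysozyme, 11685 to 19319. The dimmest of the 7 was Itgam, near the filter at 131 to 175.5. Of 48 marker genes of other cell types with a probe, 8 passed: Pf4, a platelet chemokine, at 3485 to 7143, Ctsk at 514 to 758, Bst2 at 228 to 454, S100a8 at 174 to 255, and Dcstamp, F13a1, S100a9 and Cpa3 at no more than 178. Hba-a1 and Itga2b, the other erythroid and megakaryocyte markers with a probe, missed the filter and read at most 91.2. The T cell, B cell, NK cell, stromal and endothelial markers read at most 111 on any array.

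The windows around the annotated starts of Tlr2, Tlr8 and Tlr13 are shown because the brightest probe of each of these genes had control 4 and then control 1 as its lowest libraries. Tlr6, which had this order on its dimmer probe only, has 2 windows that are not shown. Each window runs 5′ to 3′ from 250 bases before to 50 bases after the start, from RefSeq on GRCm38.p6. Capitals mark matches on either strand to GAGGAA, 1 form of the letters bound by the myeloid factor PU.1. The Tlr2 window is chr3:83841559-83841858, minus strand, the Tlr8 window chrX:167264280-167264579, minus strand, and the Tlr13 window chrX:106143025-106143324, plus strand.
Tlr2: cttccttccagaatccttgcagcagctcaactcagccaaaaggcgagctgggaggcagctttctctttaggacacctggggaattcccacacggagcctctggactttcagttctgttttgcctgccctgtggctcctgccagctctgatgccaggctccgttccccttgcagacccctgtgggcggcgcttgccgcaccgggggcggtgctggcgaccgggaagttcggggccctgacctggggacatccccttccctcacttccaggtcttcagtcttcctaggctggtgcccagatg
Tlr8: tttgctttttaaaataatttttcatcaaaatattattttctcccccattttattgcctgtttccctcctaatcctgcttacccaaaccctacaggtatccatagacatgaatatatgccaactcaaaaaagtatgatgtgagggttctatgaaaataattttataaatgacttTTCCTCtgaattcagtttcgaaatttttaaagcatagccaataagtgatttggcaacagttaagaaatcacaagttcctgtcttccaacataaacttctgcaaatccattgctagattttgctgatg
Tlr13: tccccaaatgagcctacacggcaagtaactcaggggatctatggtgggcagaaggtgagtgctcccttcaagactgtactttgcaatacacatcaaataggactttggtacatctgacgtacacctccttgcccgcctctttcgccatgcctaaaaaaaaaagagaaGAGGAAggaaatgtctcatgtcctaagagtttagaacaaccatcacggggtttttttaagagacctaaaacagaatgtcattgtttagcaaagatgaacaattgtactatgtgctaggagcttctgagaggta
The Tlr8 window holds 1 match, read on the opposite strand, and the Tlr13 window 1 match, while these letters are not in the Tlr2 window. A match is a run of letters and not a shown binding site, and shorter or other forms of the PU.1 site were not searched. Among all 32851 windows of the same length 28.3% hold GAGGAA, and among the 9 windows found for 7 of the 10 genes 4 do, in Tlr1, Tlr8, Tlr9 and Tlr13.

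Cd14 and Tlr4, the co-receptor and the receptor for LPS, ordered the libraries in opposite ways. The Cd14 probe read 1100, 1159, 637 and 337 in control 1 to 4 and 1218, 1200, 578 and 621 in VAV ko 1 to 4. All 4 libraries numbered 1 and 2 lay above all 4 numbered 3 and 4, and the lowest of the former was 1.73 times the highest of the latter. Control 4 had the lowest reading and lay apart from the other libraries numbered 3 and 4. Among the kept probes 3.72% had this order and 0.393% had it with a gap of at least 1.5 times.

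Tlr4 has 3 probes, of which 2 passed the filter. The brighter probe, ILMN_2684234, read 864, 733, 1024 and 1359 in control 1 to 4 and 740.0, 832, 1110 and 1043 in VAV ko 1 to 4. Here the libraries numbered 1 and 2 all lay below those numbered 3 and 4, an order held by 3.18% of kept probes, and control 4 was the highest. The other kept probe, ILMN_2752966, read 563, 596, 706 and 293 in control 1 to 4 and 627, 546, 821 and 682 in VAV ko 1 to 4. It gave the same order in 7 libraries, with the gap between the numbers at 1.09 times, but control 4 was its lowest library, at 0.468 of the median of the other 7. On the brighter probe that ratio was 1.57. The remaining probe, ILMN_2690004, reached 100 on 3 arrays and ran from 80.1 in control 4 to 111 in VAV ko 3. For control 4 the Tlr4 probes thus go opposite ways, and the level of Tlr4 in that library is uncertain.

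**Figure D1:**
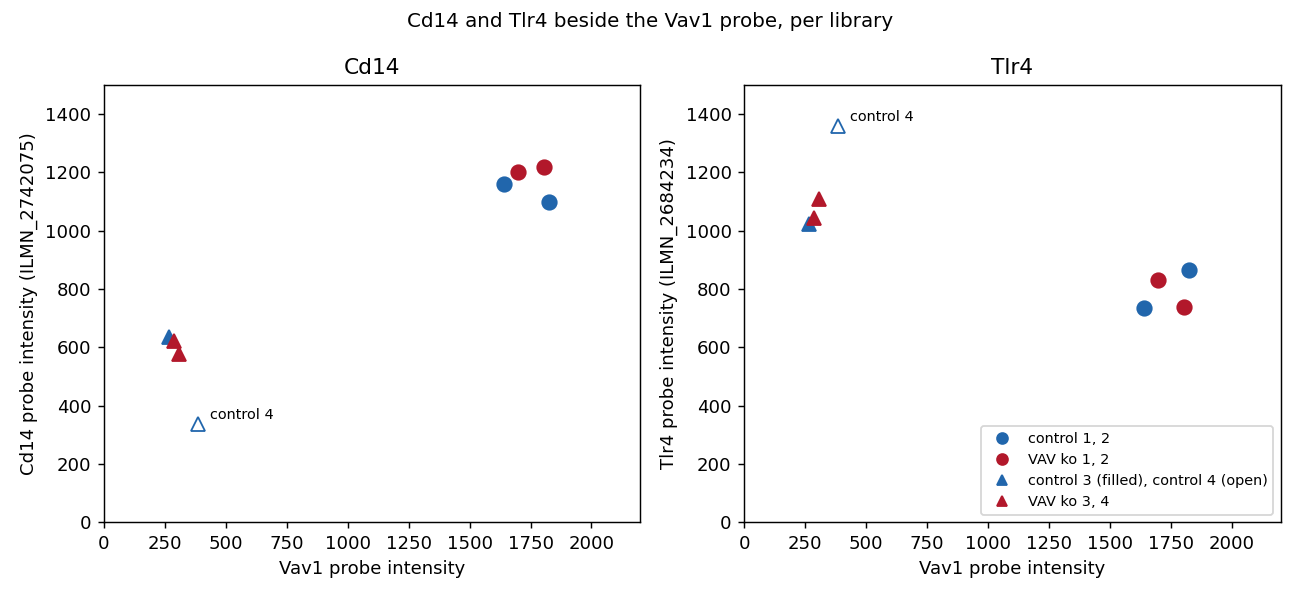
Intensity of the Cd14 probe (left) and of the brighter Tlr4 probe (right) against the Vav1 probe, with 1 point per library on linear axes. Libraries with the numbers 1 and 2 (circles) sit at high Vav1, high Cd14 and low Tlr4, and those numbered 3 and 4 (triangles) at the other corner, with control 4 (open) lowest for Cd14 and highest for Tlr4.

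The lipoprotein receptors of the cell surface include the steadiest kept probe, that of Tlr1, while Tlr2 spanned 2.11 times. TLR2 pairs with TLR1 or TLR6 to bind lipoproteins that carry different numbers of lipid chains. The Tlr2 probe read 298, 386, 403 and 204 in control 1 to 4 and 382, 325, 430.5 and 394 in VAV ko 1 to 4. Control 4 was lowest and control 1 next, and the other 6 libraries lay between 325 and 431. Tlr1 had readings of 381, 348, 403 and 365 in control 1 to 4 and 382, 349, 392 and 429.8 in VAV ko 1 to 4. Its highest value was 1.23 times its lowest. Tlr6, the neighbour of Tlr1 on chromosome 5, has 2 kept probes. The brighter one, ILMN_3162337, read 301, 367, 327 and 358 in control 1 to 4 and 305, 281, 345 and 337 in VAV ko 1 to 4. Its lowest library was VAV ko 2 and its highest control 2. The dimmer one, ILMN_1254605, lay close to the filter, from 92.3 in control 4 and 98.8 in control 1 to 129 in VAV ko 3. The probes of Tlr6 therefore order the libraries differently. Probe sequences were not used here, so whether a probe also reads a related gene was not tested.

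Of the receptors of the endosome, Tlr7, Tlr8 and Tlr13 had kept probes. Tlr7, a sensor of single-stranded RNA, read 1285, 1371, 1464 and 1170 in control 1 to 4 and 1290, 1114, 1452 and 1568 in VAV ko 1 to 4. The 8 libraries overlapped between the labels and spanned 1.41 times. Tlr8, its neighbour on the X chromosome, senses RNA in human cells. The Tlr8 probe read 166, 363, 429 and 82.8 in control 1 to 4 and 332, 234, 416 and 441 in VAV ko 1 to 4. Control 4 read below the array median of 86.2, so that no exact fold can be given for it. The other 7 libraries spanned 2.66 times, and among all 8 control 1 and VAV ko 2 were the next lowest.

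Tlr13, a mouse receptor for bacterial ribosomal RNA that also lies on the X chromosome, has 2 kept probes. The brighter one, ILMN_2735961, read 1481, 3044, 2582 and 826 in control 1 to 4 and 2464, 2304, 2533 and 2961 in VAV ko 1 to 4. Control 4 and control 1 were low, at 0.326 of the median of the other 7 libraries and at 0.579 of the median of the remaining 6. The other 6 libraries lay between 2304 and 3044. The second probe, ILMN_2894587, read 776, 656, 1008 and 613 in control 1 to 4 and 944, 821, 644 and 1007 in VAV ko 1 to 4. It put control 4 lowest too, but VAV ko 3 and control 2 next, so that the low reading of control 1 was seen on 1 of the 2 probes. The order with control 4 lowest and control 1 next was held by 4 of the 11 kept probes, those of Tlr2, Tlr8, Tlr13 (ILMN_2735961) and Tlr6 (ILMN_1254605), and by 15.6% of all kept probes. Measures of RNA quality were not used here, and their part in the result was not tested.

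Tlr3 and Tlr9, the sensors of double-stranded RNA and of unmethylated DNA, stayed near the array median. The Tlr3 probe read 86.7, 90.1, 90.2 and 142 in control 1 to 4 and 90.8, 91.1, 88.8 and 99.7 in VAV ko 1 to 4. A reading over 100 was found in control 4 alone. The Tlr9 probe ILMN_2849322 read 110 in control 4 and 78.4 to 87.0 in the other 7 libraries. The other Tlr9 probe, ILMN_2454579, read at most 86.1. Tlr5, Tlr11 and Tlr12, receptors of this family outside the 10 genes, read at most 99.0 on any array. Without detection p-values tied to the samples, these readings show only that the probes were near the level of most probes of the array.

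**Figure D2:**
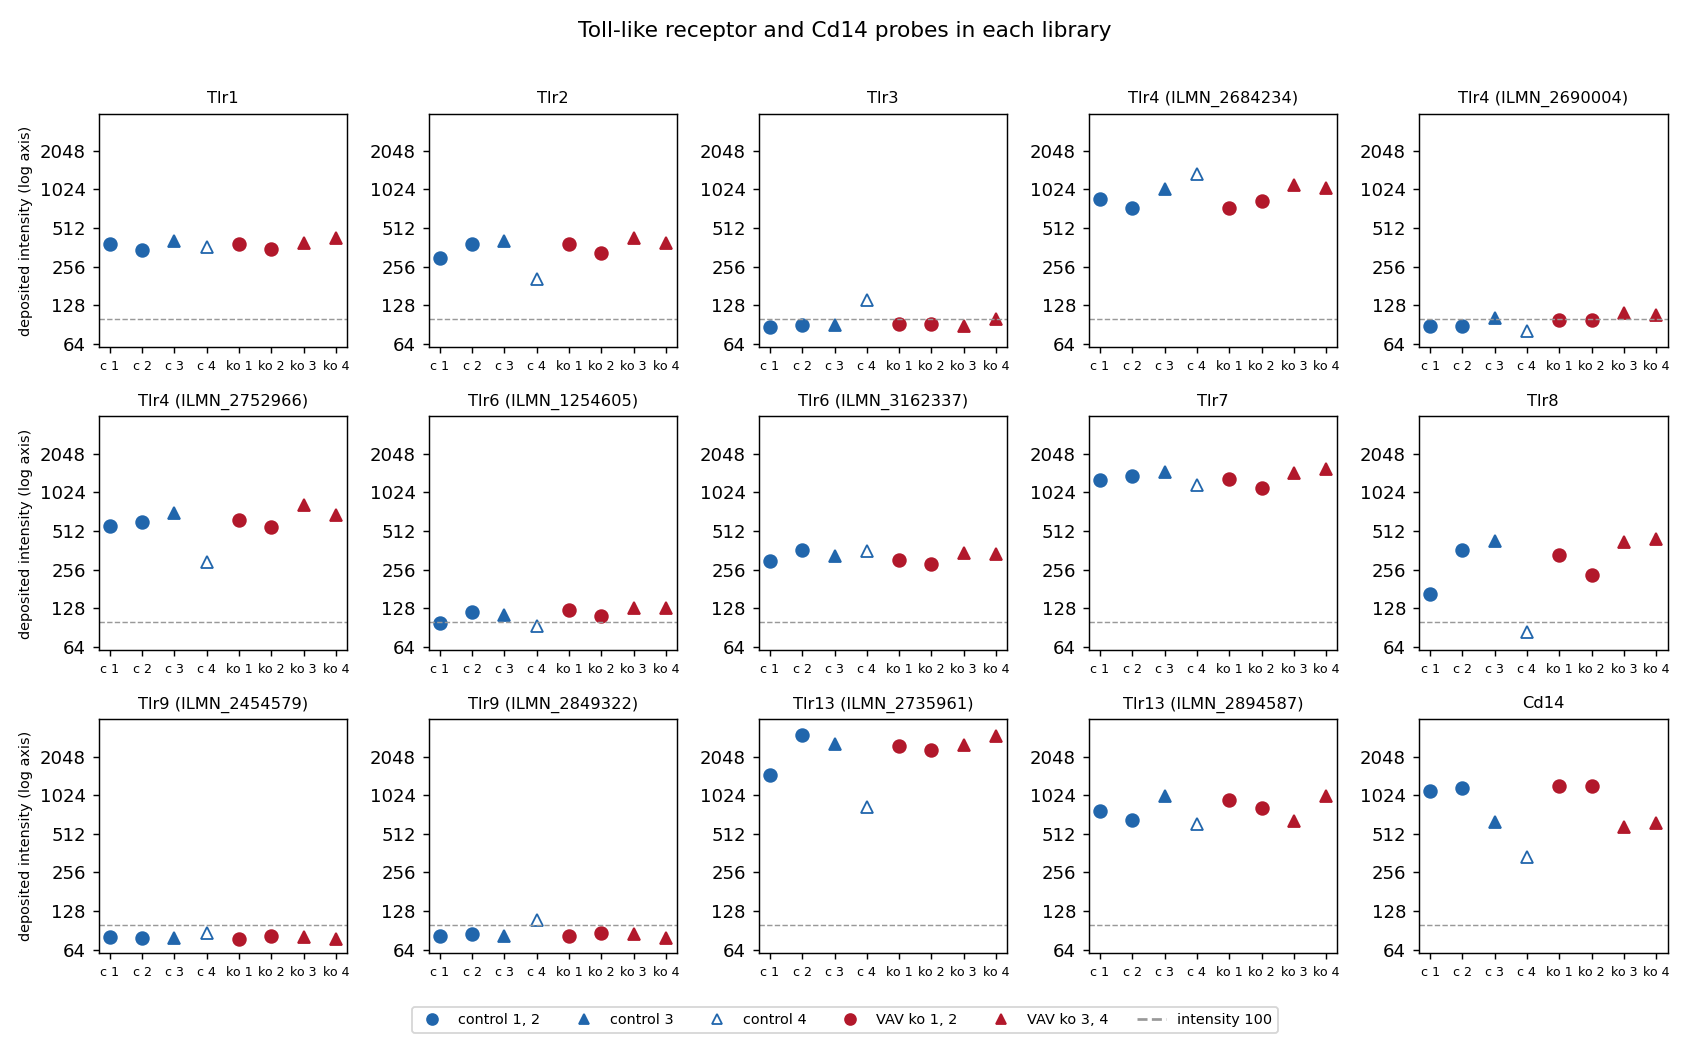
Deposited intensity of the 15 probes in each library, on a log axis shared by all panels, with the level of 100 dashed. Control libraries are blue and VAV ko libraries red, circles are numbers 1 and 2, triangles numbers 3 and 4, and control 4 is open; Cd14 and Tlr8 spread most without control 4, together with ILMN_2735961 of Tlr13, while Tlr3 and Tlr9 stay near or under the line.

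Of the 11 kept probes 5 spanned at least 2 times between their lowest and highest library (26.6% of all kept probes did), and 3 did without control 4 (3.2%). Set side by side without control 4, some other receptor probes shared the order of Tlr4, those of Tlr6 and Tlr13 did not, and Cd14 had the reverse. In 6 of the 11 kept probes the 4 libraries numbered 1 and 2 all lay below control 3, VAV ko 3 and VAV ko 4, against 6.33% of all kept probes. They were the probes of Tlr1, Tlr2, Tlr7 and Tlr8 and both of Tlr4. Their gaps were small: the lowest of the 3 libraries over the highest of the 4 was 1.02 for Tlr1 and Tlr2, 1.06 for Tlr7, 1.15 for Tlr8, and 1.19 and 1.09 for the Tlr4 probes. Cd14 was the 1 kept probe with the opposite order, which 6.94% of all kept probes had. With control 4 the first count was 1. That library read below all others for Tlr2, Tlr8 and the dimmer kept Tlr4 probe, and within the range of the libraries numbered 1 and 2 for Tlr1 and Tlr7. The split follows the numbers in the titles and was noticed in the data, so these counts are a description with no test. The labels do not say what the numbers stand for. The split also ran through markers: without control 4, 3 of 7 macrophage markers (Mertk, Fcgr1 and Mrc1) were lower in the libraries numbered 1 and 2. Of the 8 kept markers of other cell types 4 were higher there. Dcstamp, an osteoclast marker, read 159 to 178 against 108 to 122, and Ctsk, another, 629.9 to 758 against 514 to 609. The other osteoclast markers, Calcr and Ocstamp, missed the filter and overlapped between the numbers. The neutrophil gene S100a9 read 104 to 124 against 82.4 to 87.6, and the mast cell gene Cpa3 102 to 107 against 78.9 to 96.3. The other mast cell and basophil markers missed the filter. Of them Fcer1a and Ms4a2 overlapped, and Mcpt8 did not, at 88.2 to 108 against 76.4 to 83.2. The other kept neutrophil marker, S100a8, overlapped, at 199.7 to 255 against 183 to 224. Summed over the list, 4 osteoclast markers reached 960 to 1078 in the libraries numbered 1 and 2. In control 3, VAV ko 3 and VAV ko 4 they reached 789 to 879, and in control 4 973. The 7 neutrophil markers reached 742 to 796 and 690.2 to 735, with 712 in control 4. Of these 7, S100a8 and S100a9 alone passed the filter. The others read at most 119 on any array, so much of this sum is signal near the array median. The osteoclast sum was mostly Ctsk, and each sum adds readings that share no common scale. The part of these cell types in the result was not tested.

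**Figure D3:**
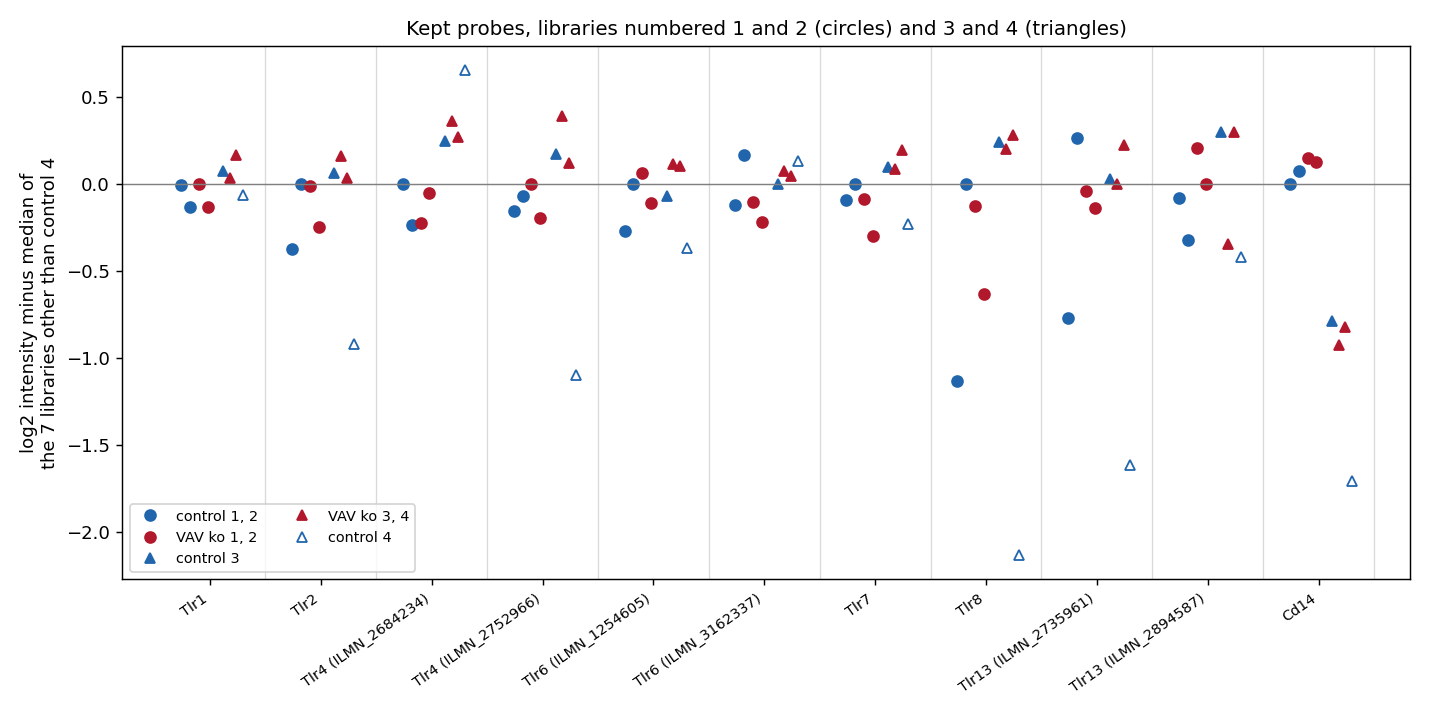
Log2 intensity of each of the 11 kept probes in each library, minus the median of the 7 libraries other than control 4. Circles are libraries numbered 1 and 2 and triangles those numbered 3 and 4; apart from control 4 (open), triangles lie above circles for Tlr1, Tlr2, both Tlr4 probes, Tlr7 and Tlr8 and below them for Cd14.

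Between the labelled genotypes none of the kept Toll-like receptor and Cd14 probes passed the test. In limma's moderated test 0 of the 11 had an adjusted p under 0.05, and 0 had an unadjusted p under 0.05. Over all 13479 kept probes 0 (0%) passed, 44 (0.326%) had an unadjusted p under 0.05, and the lowest adjusted p was 0.795. The WT and vav1-/- libraries overlapped in each of the 11 probes, where 1.1% of all kept probes had no overlap.

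The widest estimate was that of Tlr8, at 260 ± 163 (SD, n = 4) in the libraries labelled WT and 356 ± 93.8 (SD, n = 4) in those labelled vav1-/-. Control 4, at the level of most probes of the array, is among the former. The log2 fold change of Tlr8 was 0.79 ± 0.55 (SE), with a 95% interval from -0.45 to 2.04 and an adjusted p of 0.795 in limma, and 0.25 without control 4. Tlr13 read 1983 ± 1013 and 2565 ± 281 (SD, n = 4 each) on its brighter probe, at a log2 fold change of 0.55 ± 0.37 (SE), and 0.18 without control 4. Its second probe, ILMN_2894587, was at 0.17 ± 0.20 (SE), and at 0.07 without control 4. Control 4, a library labelled WT, had the lowest reading of Tlr8 and of both Tlr13 probes.

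Cd14 had 808 ± 391 (SD, n = 4) in the libraries labelled WT and 904 ± 352 (SD, n = 4) in those labelled vav1-/-, with a log2 fold change of 0.25 ± 0.44 (SE), an interval from -0.74 to 1.23 and an adjusted p of 0.833 in limma. Without control 4 its direction turned, to -0.14. Among the libraries numbered 1 and 2, both labelled vav1-/- read above both labelled WT (1218 and 1200 against 1100 and 1159), and among those numbered 3 and 4 they lay between 578 and 621 against 637 in control 3 and 337 in control 4. The Tlr4 probes were at -0.08 ± 0.22 (SE, ILMN_2684234) and 0.38 ± 0.28 (SE, ILMN_2752966), and at 0.09 and 0.10 without control 4, where the first turned. The dim Tlr4 probe ILMN_2690004 was at 0.28 with an unadjusted p of 0.0274 and an adjusted p of 0.903 when all probes were tested in limma. In that fit standard errors of dim probes were smaller: ILMN_1254605 of Tlr6 had 0.115 in place of 0.142. The share of all probes with an unadjusted p under 0.05 in that fit is not given.

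The interval was narrowest for Tlr1. It read 374 ± 23.3 and 388 ± 33.2 (SD, n = 4 each), and the 95% interval of its log2 fold change ran from -0.21 to 0.32. For Tlr7 the values were 1323 ± 125 and 1356 ± 197 (SD, n = 4 each), with an interval from -0.30 to 0.35. The dimmer Tlr6 probe was at 0.28 with an interval from -0.04 to 0.60. Tlr2 was at 0.31 with an interval from -0.21 to 0.84, and at 0.09 without control 4, and the brighter Tlr6 probe at -0.10 with an interval from -0.39 to 0.19. None of these intervals reached a 2-fold change, while those of Tlr8, Tlr13 (ILMN_2735961), Tlr4 (ILMN_2752966) and Cd14 did.

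In all, 9 of the 11 estimates were above 0, where 49.4% of all kept probes were, and 8 of 11 without control 4, where 49.8% were. The median log2 fold change was 0.25 over the 11 probes and -0.0046 over all kept probes, and 0.09 and -0.00064 without control 4. Leaving out control 4 brought 10 of the 11 estimates closer to 0 and lowered the standard error of all 11. The kept members include 2 probes each of Tlr4, Tlr6 and Tlr13, which are not independent.

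**Figure D4:**
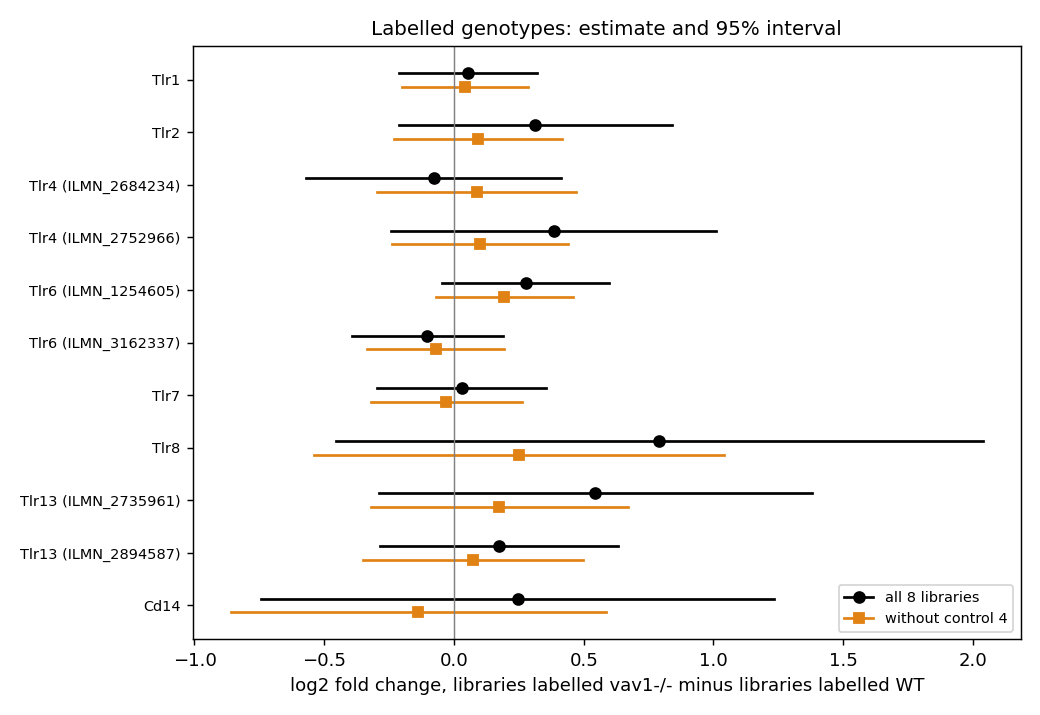
Log2 fold change of each kept probe, libraries labelled vav1-/- minus libraries labelled WT, with its 95% interval from limma, over all 8 libraries (black) and without control 4 (orange). Every interval includes 0, and the estimates of Tlr8 and Tlr13 (ILMN_2735961) fall from 0.79 to 0.25 and from 0.55 to 0.18 without control 4.

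The partners of the receptors were read by their brightest kept probe. Of 87 genes of the pathway with a probe, 69 had a kept one, and 0 passed the test between the labels, with 32 higher and 37 lower means in the libraries labelled vav1-/- and a median log2 fold change of -0.016. Ly96, which encodes the MD-2 protein that binds LPS, read 983, 564, 988 and 1937 in control 1 to 4 and 677, 860.3, 713 and 804 in VAV ko 1 to 4. Control 4 had by far the highest reading, while the other 7 overlapped between the labels. Ly86, the partner of the TLR4-like receptor CD180, read 759, 650.5, 971 and 898 in control 1 to 4 and 674, 748, 1029 and 964 in VAV ko 1 to 4. Like the brighter Tlr4 probe, it was lower in all libraries numbered 1 and 2 than in all numbered 3 and 4. Cd180 itself read 1352 to 1666 and showed no such order.

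Chaperones, proteases and other genes listed around the endosomal receptors ranged widely. Cnpy3 at 94.9 to 148 and Ctsl at 91.0 to 252 had readings near the filter, while others had some of the brightest probes of the lists. Unc93b1, which carries these receptors out of the endoplasmic reticulum, read 2174 in control 4 and 2430 to 3144 in the other libraries. Hsp90b1, the chaperone gp96, read 5502 to 7246 and Rab7b, a GTPase of late endosomes, 3797 to 4657. Ctsb, a lysosomal protease, read 16173 to 23681. Lgmn, the asparagine endopeptidase that cleaves endosomal receptors, read 5412, 7662, 10504 and 1190 in control 1 to 4 and 7035, 6277, 10240 and 9353 in VAV ko 1 to 4. Control 4 was far below the rest, and without it the libraries numbered 1 and 2 were all lower, as for Tlr8.

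None of the kept adaptors, kinases and transcription factors passed the test between the labels. Myd88, the adaptor that most Toll-like receptors share, read 1388, 1464, 1468 and 1166 in control 1 to 4 and 1464, 1181, 1533 and 1509 in VAV ko 1 to 4. Ticam1, the TRIF adaptor of TLR3 and TLR4, lay near the filter at 90.2 to 114. Pik3ap1, an adaptor to PI3 kinase, read 1789 in control 4 and 3954 to 5412 elsewhere. Of 15 kinases and ubiquitin ligases kept, 6 had a higher and 9 a lower mean in the libraries labelled vav1-/-, among them Tbk1 and Tab2, with log2 fold changes of -0.23 and -0.11, and of -0.10 and 0.03 without control 4. The median of this list turned from -0.11 to 0.03 without control 4. The kinase gene Mapkapk2 read 115 in control 4 and 510.4 to 827 elsewhere, and its log2 fold change of 0.82 became 0.11 without control 4. Traf6, a ubiquitin ligase, read 958 in control 4 and 317 to 437 elsewhere, at -0.54 and -0.22. Of 11 transcription factors, 6 were higher and 5 lower, with Atf3 at 0.32 and Fos at -0.28, and at 0.11 and -0.09 without control 4. Of 11 inhibitors, 2 were higher and 9 lower, with a median of -0.16, and -0.07 without control 4. Tollip, an inhibitor of IRAK kinases, was one of the 2 higher ones, at 0.44, and 0.21 without control 4. Dusp1, a phosphatase of MAP kinases, was at -0.17, and at 0.0038 without it.

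Target genes of the pathway were mixed in level and in order. Of 20 with a probe, 11 had a kept one, and Il6, Il1b, Nos2, Ptgs2 and Ifnb1 were among those without. Ccl4 and Ccl3, chemokine genes, had the brightest probes, at 7687 to 12834 and 882 to 3303. Ccl2, the main chemokine for monocytes, read 990.4, 921, 689 and 402 in control 1 to 4 and 1080, 942, 483 and 609 in VAV ko 1 to 4. It ordered the libraries as Cd14 did, with all numbered 1 and 2 above all numbered 3 and 4. Tnf, Cxcl2 and Cd40 did so too at readings near the filter, of at most 159, 110 and 133. In the other direction, Cd86, a costimulatory molecule, read 193 to 212 in the libraries numbered 1 and 2 and 232 to 294 in those numbered 3 and 4. Over the pathway, 4 of 69 genes had the order of Cd14 and 2 the reverse, and without control 4 these were 6 and 7. Among all kept probes the shares were 3.72% and 3.18%, and 6.94% and 6.33% without control 4.

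Genes with the pattern most like a receptor's were looked up among 7981 kept genes by Pearson correlation of log2 intensity over the 8 libraries, for members whose brightest kept probe spanned at least 2 times. Those were Tlr2, Tlr8, Tlr13 and Cd14. For Tlr2 the most alike were Zdhhc14, Ncoa4 and Tor1aip1, at correlations of 0.996, 0.992 and 0.991. For Tlr8 they were Zdhhc14, Wwp1 and Ecm1, at 0.993, 0.993 and 0.988, and for Tlr13 Ggcx, Rtn3 and Top1, at 0.994, 0.99 and 0.989. Zdhhc14, a palmitoyltransferase, read 443, 634, 649.6 and 296 in control 1 to 4 and 588, 500.1, 689.7 and 651 in VAV ko 1 to 4. Its lowest libraries were control 4 and control 1, as for both receptors.

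For Cd14 the most alike were Mknk2, Cebpb and Ccnd1, at 0.994, 0.989 and 0.989. Cebpb, a transcription factor of myeloid cells, read 1723, 1939, 1321 and 852 in control 1 to 4 and 2034, 1887, 1231 and 1161 in VAV ko 1 to 4. It parted the libraries by number and had control 4 lowest, as Cd14 did. Without control 4 the places changed for most. Slc16a10, Zdhhc14 and Cd82 then led for Tlr2 (0.989, 0.989 and 0.987), Pld3, Snx12 and Zdhhc14 for Tlr8 (0.99, 0.987 and 0.983), Eif2s3x, Mettl25 and Arnt for Tlr13 (0.989, 0.981 and 0.979), and Pfkl, Ccnd2 and D17H6S56E-5 for Cd14 (0.993 for each). Pfkl was at -0.04 over all 8 libraries. These correlations rest on 8 or 7 points that share their normalization and, for Cd14, mostly tell on which side of its gap a library lies.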

How the data were processed

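Biotin-labelled cRNA made from total RNA was read on Illumina mouse beadchips, per the labels. For 8 arrays the authors deposited linear probe intensity. Its columns share quartiles and extremes, as after quantile normalization; the labels name neither the software nor any background treatment. The 8 columns of another table have names that match no label and were not used.

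Gene names came from the platform annotation (34885 probes with 1 symbol, 18 with several, 10378 with none), checked by gene identifier against RefSeq GRCm38.p6, used otherwise for chromosomes, neighbours and promoter windows. Intensities were corrected with normexp (offset 50, which pulls fold changes of dim probes toward 0) with limma 3.58.1 (R 4.3.3), then taken to log2. Probes at 100 or more on at least 4 arrays were kept (13479). Labels were compared with lmFit and eBayes, two-sided, with Benjamini-Hochberg adjustment over kept probes and a threshold of 0.05. The fit was run on simulated data with independent errors and no outlying library, which cannot show how it behaves on these arrays. Each probe was tested by itself, and list genes by their brightest kept probe. Of the pathway lists, the text names the 2 brightest genes of each and Ly96, Cd180, Myd88, Ticam1 and Unc93b1. Ly86, Cnpy3, Ctsl, Mapkapk2, Traf6, Ccl2, Tnf, Cxcl2, Cd40, Cd86, Itgam and the markers that part the numbers were named after their values were seen. The same holds for the marker genes said to have missed the filter. The members and lists were chosen with earlier results of these data known. Alternatives changed the offset, correction, filter, variance model or array weights, added a replicate block, or left out each library.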

Additional observations from a re-analysis of the deposited data

Results flagged for a closer look

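Within the 4 libraries labelled WT, control 4 lay far from the other 3 on the probes of 2 receptors that missed the intensity filter. It read 142 on the Tlr3 probe, and 110 and 86.1 on the Tlr9 probes ILMN_2849322 and ILMN_2454579, each the highest of the 8 libraries. The measure was the gap to the nearest library over the range of the group, and 3 of 30 groups of 4 passed it. Chance passes about 1 in 20 where no library stands apart, and the share over all probes is not given. Control 4 was the lowest library at 41.1% of kept probes and the highest at 39.7%. The count therefore cannot be read as a trait of these receptors. The last value lies at the array median of 86.2. On the kept probes no group passed.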

How the results depend on the processing

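No probe passed the test between the labels under any of the 16 alternative settings, with lowest adjusted p-values in limma between 0.505 and 1. The kept Toll-like receptor and Cd14 probes held their direction in 85 of 86 results under settings other than leaving out a library; the exception was Tlr7, at -0.015 with array weights. Leaving out each library in turn kept the direction of 8 of the 11 probes. Of the other 3, Tlr4 (ILMN_2684234) ranged from -0.216 to 0.088, Tlr7 from -0.046 to 0.12 and Cd14 from -0.14 to 0.48, with the turn of Cd14 found without control 4. The same library moved the estimates of Tlr8 and Tlr13 (ILMN_2735961) most, to 0.25 and 0.18. The number of probes whose labels do not overlap was 148 (1.1%) among the kept probes, 938 (2.07%) with no filter and 91 (0.932%) at 100 or more on all 8 arrays; fewer or more probes were counted. With the replicate number as a block 0 probes passed. Same-numbered libraries correlated at 0.463, -0.172, 0.137 and 0.131 in their deviations from the group means, and differently numbered ones at -0.430 to 0.382. The WT mean includes control 4, so these values cannot decide whether the numbers pair the samples. They were not taken to do so. Without control 4, chosen after seeing the data, 6 kept members in place of 1 had libraries numbered 1 and 2 lowest. The number of arrays limits the precision, and probes near the array median carry little signal.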
